A study of Homo sapiens with 10 samples.

Results

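Methylation of lysine 36 of histone H3 (H3K36) is removed by demethylases and bound by reader proteins, and 10 genes of these 2 kinds were examined in HCT116 cells and in DNMT1 KO cells. The genes were taken from a named list whose rule uses no measured value, though it was drawn up with earlier results of these data known, and all 10 were matched by symbol to 1 Ensembl gene each among the 58884 genes of the count tables. They comprised 6 demethylases, KDM2A, KDM2B, KDM4A, KDM4B, KDM4C and RIOX1, and 4 readers with a PWWP domain, PSIP1, HDGFL2, ZMYND11 and MSH6. HCT116 is a human colorectal carcinoma line. DNMT1 encodes the enzyme that copies DNA methylation after replication, and DNMT1 KO cells derive from HCT116 by deletion of part of this gene. According to the study some truncated DNMT1 is still made, so the cells are hypomorphic, and they are a single line, so a property of that line and an effect of the targeted allele cannot be told apart. Poly(A) RNA was sequenced in 6 HCT116 libraries (replicates 1, 2, 3, 7, 8 and 9) and 4 DNMT1 KO libraries (replicates 1 to 4), with no treatment in either group. The labels divide them into batches: replicate 1 of each group in batch 1, replicates 2 and 3 of each group in batch 2, DNMT1 KO replicate 4 in batch 3 and HCT116 replicates 7 to 9 in batch 4. The study describes its replicates as independent cultures, so the p-values given here measure the spread between cultures of the same lines. Some of these cultures carry different batch labels.

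H3K36 methylation is placed by the enzymes NSD1, NSD2, NSD3, ASH1L and SETD2. Its trimethylated form lies over the bodies of transcribed genes and its dimethylated form spreads more widely between them. PWWP domains are folds that bind methylated H3K36 together with DNA, and they bring their proteins to these regions. The de novo DNA methyltransferases DNMT3A and DNMT3B carry such a domain, which is one of the links between H3K36 methylation and DNA methylation. The demethylases contain a JmjC domain, which uses iron and 2-oxoglutarate to take methyl groups off lysine.

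DNMT1 was lower in every DNMT1 KO library than in every HCT116 library. Its level was 14.1, 19.9, 21.5 and 22.3 CPM (counts scaled to a common library total with TMM factors) in DNMT1 KO replicates 1 to 4, and in HCT116 it ran from 89.8 through a median of 135 to 263 CPM. This gave a log2 fold change of -2.97 with SE 0.33 (adjusted p = 1.74e-05 by edgeR's quasi-likelihood test). HCT116 libraries held 35418732 to 85991812 counts, DNMT1 KO libraries 26700853 to 55732013. The member with the fewest counts, RIOX1, had 223 to 831 in each library, and MSH6 had 4436 to 19020. Among small counts of 1 to 10, 64.4 to 70.0% were even numbers in 9 libraries and 39.9% in DNMT1 KO replicate 4, so counts of the 9 libraries may largely come in read pairs. The 6 epithelial markers were detected in every library, but 4 were lower in DNMT1 KO (EPCAM, CDH1, KRT8 and KRT18), and their summed level was 2520 to 6130 CPM in HCT116 against 645 to 1430 CPM in DNMT1 KO. Markers of other cell types were low. Of 5 fibroblast genes 2 were called higher (COL3A1 and LUM), with a summed level of 6.22 to 19.6 CPM in HCT116 and 11.1 to 18.1 CPM in DNMT1 KO. The defining leukocyte gene PTPRC had at most 2 counts in any library. Of 3 endothelial genes 2 were called higher (PECAM1 and VWF), with 0.107 to 0.743 CPM against 3.35 to 5.61 CPM. Whether these marker shifts bear on the members' levels was not tested.

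To ask whether removal and reading of H3K36 methylation differ at the RNA level between the lines, each member was compared between the 4 DNMT1 KO and the 6 HCT116 libraries. None of the 10 passed the test. With edgeR's quasi-likelihood test, 0 of 10 had an adjusted p under 0.05. Of all 19279 genes tested, 16.1% passed at that threshold and 13.9% also had a log2 fold change beyond 1. Among the 9684 genes whose mean level lay in the range of the members, 13.1% passed. The libraries of the groups overlapped for all 10 genes. Over all genes tested, the DNMT1 KO libraries all lay above HCT116 for 8.4% and all below for 6.79%. For 10 genes, 0 lies near that background. DESeq2 also gave 0 of 10. The smallest exact permutation p was 0.143, for KDM2B, where 0.00476 is the least that 6 and 4 libraries allow.

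A p that misses the threshold does not show that the levels were alike, and the 95% intervals give the range of change these libraries leave. All 10 intervals included 0 and lay between -0.72 and 0.99 on the log2 scale, within the fold threshold of 1. This bound was narrow, since in 18 of 22 alternative fits at least 1 interval passed that threshold, most often that of KDM4A, and PSIP1 in batch 2 alone reached 1.66. Fold changes were positive for 9 members and negative for MSH6, with a median of 0.16 against -0.07 over all genes tested. That tally did not hold when batch was a term of the fit, where 5 members were positive and 5 negative, MSH6 turned positive, and the median was 0.02 against 0.04 over all genes. The 5 methyltransferases, which also gave 0 of 5 past the test, had a median log2 fold change of 0.22. The RNA comes from whole cultures, in which fewer cells with a transcript and less transcript in each cell cannot be told apart.

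**Figure D1:**
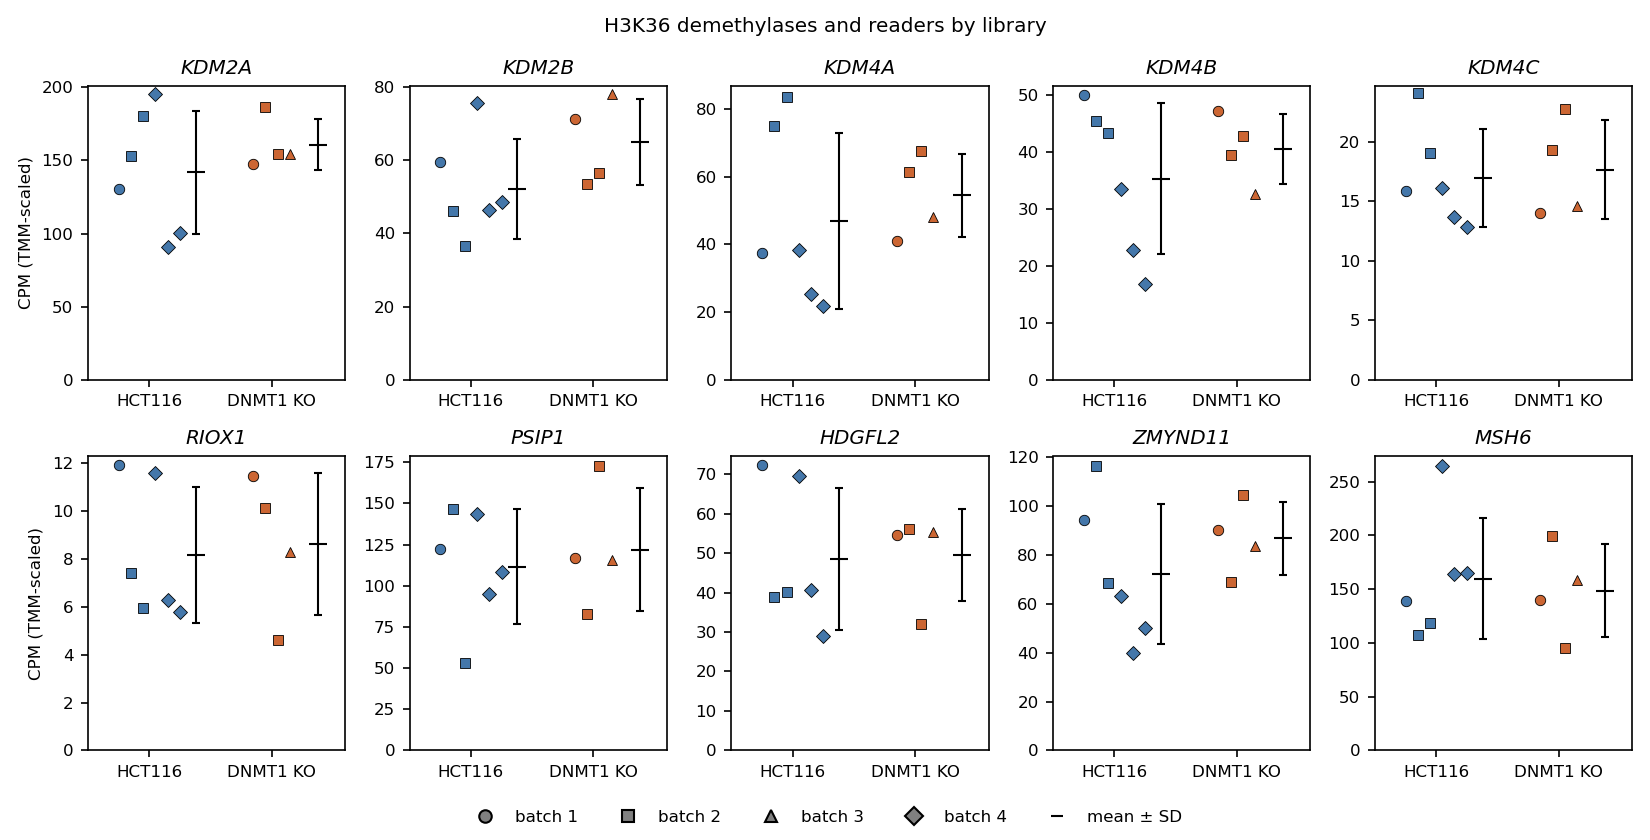
Level of each of the 10 genes in every library, in CPM on TMM-scaled totals, with HCT116 in blue, DNMT1 KO in orange and the batch given by the marker shape. Horizontal ticks and bars are the mean ± SD of each group, and the points of the groups overlap in all 10 panels.

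KDM2A and KDM2B are paralogous enzymes that remove mono- and dimethylation from H3K36. Both also carry a CXXC zinc finger that binds unmethylated CpG, which brings them to CpG islands, and KDM2B recruits a variant Polycomb repressive complex 1 (PRC1.1) to them. KDM2A (ENSG00000173120, chr11:67119263-67258082, plus strand) stood at 147, 187, 154 and 155 CPM in DNMT1 KO replicates 1 to 4. In HCT116 it ran from 90.7 through a median of 142 to 196 CPM. The DNMT1 KO values thus fell inside the HCT116 range, in its upper part. This amounted to a log2 fold change of 0.18 (SE 0.25, 95% interval -0.35 to 0.71, adjusted p = 0.692).

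KDM2B (ENSG00000089094, chr12:121429096-121581023, minus strand) was at 71.2, 53.5, 56.5 and 78.1 CPM in DNMT1 KO. In HCT116 it ran from 36.4 through a median of 47.4 to 75.4 CPM, so 4 of the 6 HCT116 libraries lay below every DNMT1 KO library, while replicates 1 and 7 lay among them. It had the largest log2 fold change of the members, 0.32 (SE 0.23, 95% interval -0.19 to 0.82, adjusted p = 0.425). Within the batches that hold both lines, the log2 ratio of DNMT1 KO to HCT116 (the difference in mean log2 CPM) was positive in each for KDM2B (0.26 in batch 1 and 0.42 in batch 2), for KDM2A (0.17 and 0.03) and for MSH6 (0.0059 and 0.29), and was negative in at least 1 of them for the other 7 members. On library totals without TMM factors the difference in mean log2 CPM of KDM2B was 0.55 (exact permutation p = 0.0238, unadjusted), and edgeR's quasi-likelihood test on those totals gave a 95% interval of 0.06 to 1.00 for the log2 fold change with an adjusted p = 0.118, which missed the threshold. The ratio of KDM2A to KDM2B, each per kilobase of exon, was 3.74 ± 1.5 (SD, n = 6) in HCT116 and 3.37 ± 0.915 (SD, n = 4) in DNMT1 KO, a difference smaller than either SD.

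KDM4A, KDM4B and KDM4C form a family with 2 substrates, tri- and dimethylated H3K9 and H3K36, and carry tandem Tudor domains. KDM4A (ENSG00000066135, chr1:43650149-43705518, plus strand) was at 41.0, 61.4, 67.7 and 48.0 CPM in DNMT1 KO and at 21.7, 37.8 and 83.7 CPM as lowest, median and highest in HCT116. The HCT116 libraries spanned a 3.85-fold range and enclosed all DNMT1 KO values. The change was 0.22 on the log2 scale (SE 0.36), with the widest interval of the members, -0.55 to 0.99 (adjusted p = 0.749).

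KDM4B (ENSG00000127663, chr19:4969113-5153598, plus strand) stood at 47.3, 39.5, 42.9 and 32.7 CPM in DNMT1 KO. Its HCT116 values ran from 16.8 through a median of 38.5 to 50.0 CPM and enclosed the DNMT1 KO values. For KDM4B the log2 fold change was 0.20 (SE 0.29, 95% interval -0.43 to 0.83, adjusted p = 0.712). KDM4C (ENSG00000107077, chr9:6720863-7175648, plus strand) was measured at 14, 19.3, 22.8 and 14.6 CPM in DNMT1 KO against 12.8, 16.0 and 24.1 CPM as lowest, median and highest in HCT116. With a log2 fold change of 0.06 (SE 0.25, 95% interval -0.48 to 0.60, adjusted p = 0.905), it was among the members with the smallest differences.

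RIOX1, also called NO66, removes methyl groups from H3K36 and H3K4 and hydroxylates a ribosomal protein. Its gene (ENSG00000170468, chr14:73490964-73493392, plus strand) had DNMT1 KO values of 11.4, 10.1, 4.62 and 8.31 CPM, so replicate 3 lay below every HCT116 library while the others lay within the HCT116 range. HCT116 ran from 5.76 through a median of 6.85 to 11.9 CPM. For RIOX1 the log2 fold change was 0.08 (SE 0.32, 95% interval -0.61 to 0.77, adjusted p = 0.903).

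Among the readers, PSIP1 (also called LEDGF) and HDGFL2 (HRP2) are related proteins that couple a PWWP domain to an integrase-binding domain, and PSIP1 tethers the menin complex of the methyltransferase KMT2A to chromatin. PSIP1 (ENSG00000164985, chr9:15464066-15510995, minus strand) was at 117, 82.6, 172 and 116 CPM in DNMT1 KO. In HCT116 it ran from 52.8 through a median of 115 to 147 CPM, and DNMT1 KO replicate 3 was the highest library of all. A log2 fold change of 0.13 resulted (SE 0.29, 95% interval -0.49 to 0.75, adjusted p = 0.818).

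HDGFL2 (ENSG00000167674, chr19:4472297-4502208, plus strand) was at 54.7, 56.0, 32.0 and 55.2 CPM in DNMT1 KO, where 3 libraries lay close together and replicate 3 apart from them. In HCT116 it ran from 28.9 through a median of 40.4 to 72.3 CPM. Its log2 fold change, 0.03 (SE 0.29, 95% interval -0.58 to 0.65, adjusted p = 0.959), was the smallest of the members in size. The ratio of PSIP1 to HDGFL2 per kilobase of exon was 1.58 ± 0.662 (SD, n = 6) in HCT116 and 1.76 ± 1.13 (SD, n = 4) in DNMT1 KO, again a difference smaller than the SDs.

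ZMYND11, also called BS69, binds trimethylated H3K36 on the histone variant H3.3 and restrains transcription elongation. The gene (ENSG00000015171, chr10:134465-254637, plus strand) was at 90.2, 68.8, 105 and 83.5 CPM in DNMT1 KO. HCT116 ran from 39.7 through a median of 65.9 to 116 CPM, which enclosed the DNMT1 KO values. ZMYND11 had a log2 fold change of 0.27 (SE 0.29, 95% interval -0.34 to 0.88, adjusted p = 0.598). The H3.3 genes H3-3A and H3-3B gave 0 of 2 past the test.

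MSH6 takes part in the recognition of base mismatches, and its PWWP domain holds it at trimethylated H3K36 before replication. The gene (ENSG00000116062, chr2:47695530-47810101, plus strand) was at 139.9, 199.6, 95.3 and 159 CPM in DNMT1 KO. In HCT116 it ran from 107 through a median of 152 to 265 CPM. DNMT1 KO replicate 3 lay below all HCT116 libraries and HCT116 replicate 7 above all others. MSH6 was the member with a negative log2 fold change, -0.11 (SE 0.29, 95% interval -0.72 to 0.50, adjusted p = 0.846).

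**Figure D2:**
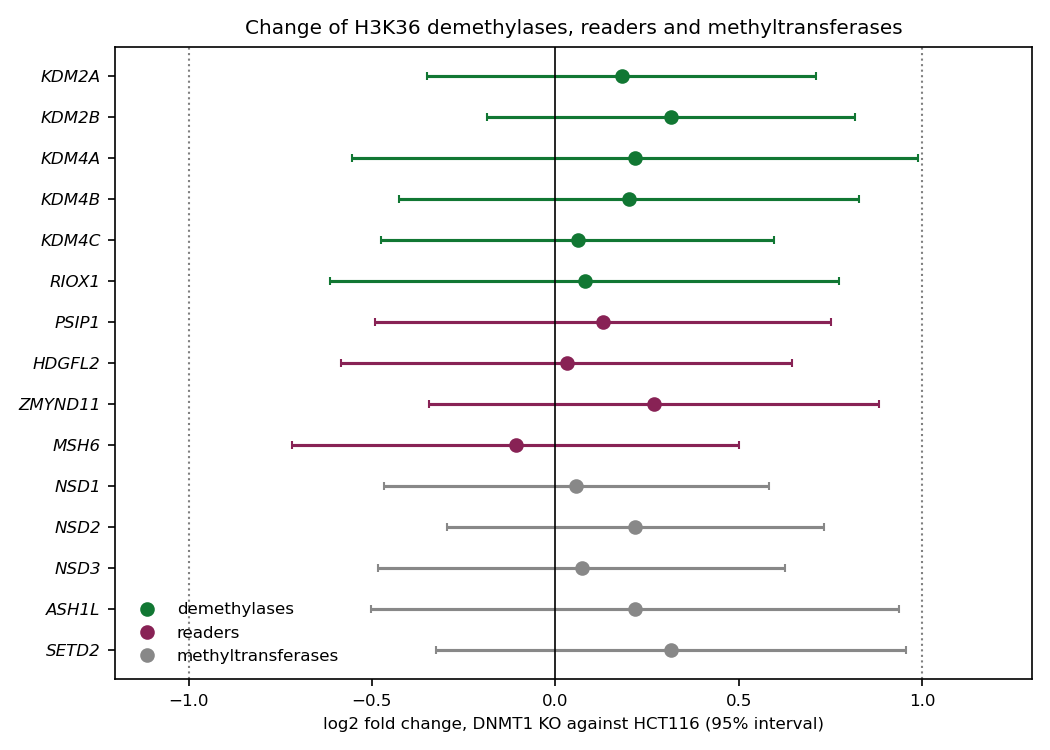
Log2 fold change of DNMT1 KO against HCT116 with its 95% interval for the 6 demethylases (green), the 4 readers (purple) and the 5 H3K36 methyltransferases (grey), from edgeR's quasi-likelihood fit of all 10 libraries. Dotted lines mark a log2 fold change of 1 in either direction, and in this fit all 15 intervals include 0 and end inside these lines.

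The balance of removing and placing enzymes was compared by summing levels per kilobase of exon. The 6 demethylases summed to 33.9 ± 9.49 CPM per kilobase (SD, n = 6, range 22.2 to 43.4) in HCT116 and to 38.8 ± 2.70 (SD, n = 4, range 36.6 to 42.5) in DNMT1 KO. The 5 methyltransferases summed to 47.5 ± 11.9 in HCT116 and to 54.1 ± 8.23 in DNMT1 KO on the same scale. The ratio of demethylases to methyltransferases was 0.718 ± 0.146 in HCT116, from 0.548 to 0.963, and 0.725 ± 0.0777 in DNMT1 KO, from 0.634 to 0.821. The DNMT1 KO ratios lay entirely within the HCT116 range. KDM4A entered these sums per kilobase of all its exon bases, 48.59% of which are shared with other annotated genes. Per kilobase of unshared exon its mean would be 17.6 instead of 9.05 CPM in HCT116, and 20.5 instead of 10.5 in DNMT1 KO. The sums and ratio on that length were not computed. A sum of RNA levels says nothing of the activity of the enzymes.

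Between genes, levels were compared per kilobase of annotated exon. PSIP1 led with 16.5 ± 5.18 CPM per kilobase in HCT116 and 18.1 ± 5.53 in DNMT1 KO (SD, n = 6 and 4), and it stood above 80.8% of genes tested. ZMYND11, KDM2A and MSH6 followed at 13.6 ± 5.40, 13.7 ± 4.07 and 14.5 ± 5.14 CPM per kilobase in HCT116, then HDGFL2 at 11.3 ± 4.19 and KDM4A at 9.05 ± 5.02. KDM2B (3.82 ± 0.998), RIOX1 (3.36 ± 1.17), KDM4B (2.40 ± 0.903) and KDM4C (1.64 ± 0.40) formed a lower set on this scale, and KDM4C stood above 37.0% of genes tested. The step from KDM4A to KDM2B kept its order in 10 of 10 libraries and that from KDM4B to KDM4C in 9 of 10. The neighbours ZMYND11 and KDM2A, and KDM2A and MSH6, kept theirs in 5 of 10, so these did not differ beyond their spread. PSIP1 lay above ZMYND11, HDGFL2 above KDM4A and RIOX1 above KDM4B in 7 of 10 libraries, and MSH6 above HDGFL2 and KDM2B above RIOX1 in 8 of 10.

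The length used decides the place of KDM4A. Of its 5184 exon bases, 48.59% are shared with other annotated genes, 2086 of them with ENSG00000284989 on the same strand, which was listed at 0 counts in all 10 libraries. A counter that discards reads falling on exons of more than 1 gene would count KDM4A over the remaining bases, and per kilobase of these it stood at 17.6 ± 9.77 CPM in HCT116, the first of the 10 genes by mean over all libraries. The settings the study lists for its counting name no option to keep such reads. Whether the reads were discarded was not tested. MSH6 shares 16.24% of its exon bases with FBXO11 on the opposite strand, a gene with 717 to 2695 counts in each library, and stood at 17.4 ± 6.14 CPM per kilobase of unshared exon in HCT116. For the other 8 members at most 4.92% of exon bases were shared. Per kilobase of coding length, PSIP1 was again the first, KDM4A the sixth and RIOX1 the last.

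**Figure D3:**
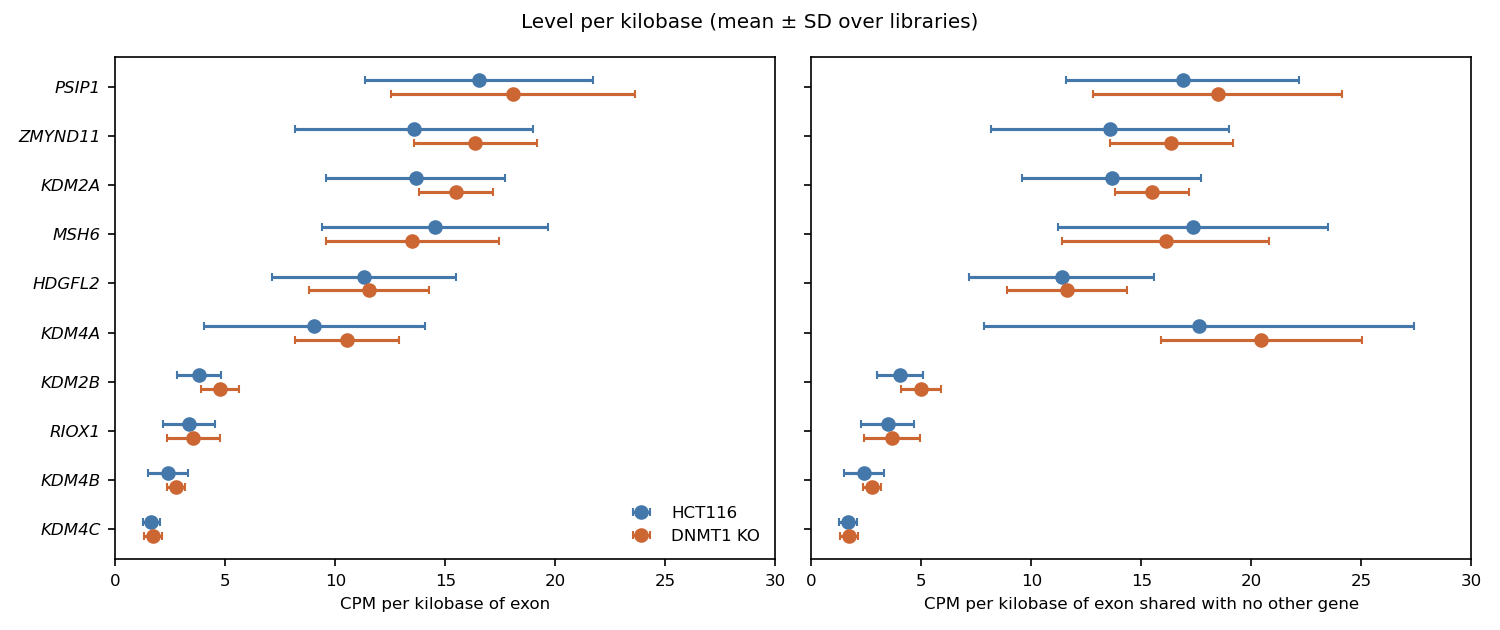
Mean ± SD over libraries of each gene's level in HCT116 (blue, 6 libraries) and DNMT1 KO (orange, 4 libraries), in CPM per kilobase of annotated exon (left) and per kilobase of exon that no other gene shares (right). KDM4A moves from the sixth place on the left to the first on the right, while KDM2B, RIOX1, KDM4B and KDM4C stay lowest on both scales.

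The differences between the lines were set against those within HCT116. KDM4B was lower in the 3 HCT116 libraries of batch 4 (24.4 ± 8.47 CPM, SD, 16.8 to 33.6) than in the 3 of batches 1 and 2 (46.3 ± 3.37 CPM, 43.4 to 50.0), with no overlap. ZMYND11 likewise stood at 50.9 ± 11.7 CPM in batch 4 and at 93.1 ± 23.9 CPM in batches 1 and 2, and KDM4A at 28.5 ± 8.70 against 65.3 ± 24.6 CPM, the latter with overlap. MSH6 lay the other way, at 198 ± 57.9 CPM in batch 4 against 122 ± 16.2 CPM, without overlap. Libraries of batch 4 lay all below the others for 14.1% of genes and all above for 14.9%, so 2 and 1 members of 10 lie near that background.

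In a fit of the HCT116 libraries alone, 0 of 10 members passed at an adjusted p under 0.05, where 8.03% of 18656 genes did. The lowest adjusted p of the members belonged to KDM4A (log2 fold change of batch 4 against batches 1 and 2 of -1.22, SE 0.36, edgeR adjusted p = 0.0512), KDM4B (-0.94, SE 0.32, adjusted p = 0.0813) and ZMYND11 (-0.88, SE 0.32, adjusted p = 0.0969). In size of log2 fold change, the gap between HCT116 batches was larger than the gap between the lines for these genes. The same held for every other member except KDM2B (0.25 against 0.32) and PSIP1 (0.10 against 0.13). The share of all genes for which it held was not computed.

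Batch 4 holds no DNMT1 KO library, so the members were also compared within the batches that hold both lines. In batch 2, with 2 libraries of each line, the log2 ratio of DNMT1 KO to HCT116 was -0.30 for KDM4A, -0.11 for KDM4B and -0.08 for ZMYND11, whereas their fold changes over all libraries were positive. In batch 1, with 1 library of each line, the same ratios were 0.13, -0.08 and -0.07. MSH6 gave 0.29 in batch 2 and 0.0059 in batch 1, against its negative value over all libraries. KDM4C gave -0.03 and -0.18, RIOX1 0.04 and -0.06, PSIP1 0.44 and -0.07, and HDGFL2 0.10 and -0.40 in batches 2 and 1. When the edgeR fit of all 10 libraries included batch, 0 of 10 members passed and 6 changed sign, namely KDM4A, KDM4B, KDM4C, HDGFL2, ZMYND11 and MSH6. The 4 that kept a positive sign in that fit were KDM2A, KDM2B, RIOX1 and PSIP1.

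**Figure D4:**
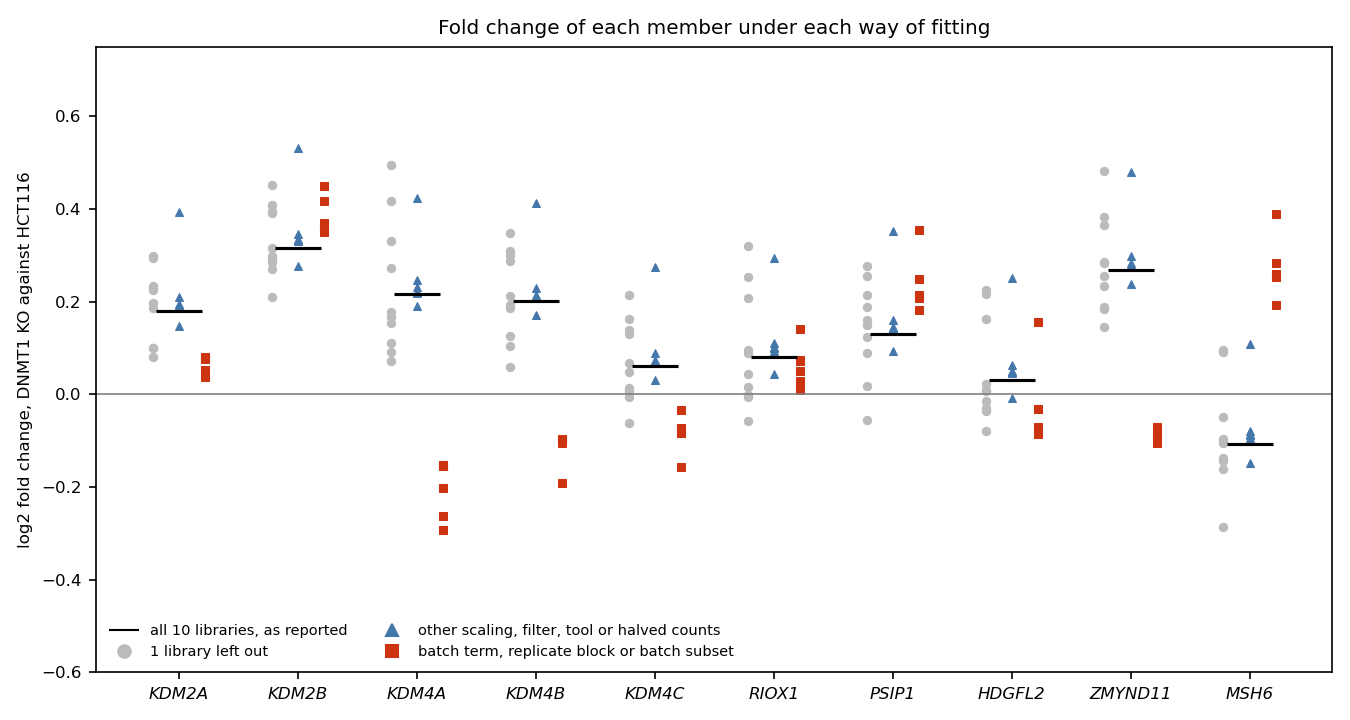
Log2 fold change of DNMT1 KO against HCT116 for each gene over all 10 libraries (black line), with 1 library left out (grey), under another scaling, filter, tool or halved counts (blue), and with a batch term, a replicate block or batch subset (red). The red points of KDM4A, KDM4B, KDM4C and ZMYND11 lie below 0 and those of MSH6 above 0, on the other side from the black line.

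Replicates of 1 line also differed within a batch. HCT116 replicates 2 and 3, both of batch 2, differed 2.78-fold in PSIP1 (147 against 52.8 CPM), a gap that 3.20% of genes of like level reached. DNMT1 KO replicates 2 and 3, of the same batch, differed 2.09-fold in the opposite order (82.6 against 172 CPM), a gap reached by 14% of genes of like level. In the same DNMT1 KO pair, RIOX1 differed 2.19-fold, MSH6 2.09-fold and HDGFL2 1.75-fold, all lower in replicate 3, where the median gene of like level differed 1.36-fold. KDM2B, KDM4A and KDM4B differed by at most 1.1-fold between these libraries. The SD of log2 CPM was larger in HCT116 than in DNMT1 KO for 8 of 10 members, beside 76.1% of 9653 genes of like level.

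The members' promoters were inspected because KDM2A and KDM2B bind unmethylated CpG and because DNMT1 KO bears on CpG methylation, which was not measured in these libraries. RefSeq promoter windows (GRCh38.p14, 250 bases before to 50 after each annotated start) were matched for 9 members. All 9 had at least 1 CpG-rich window, defined as GC content above 50% and a CG count above 0.6 of that expected from base composition, and 20 of their 25 windows met this definition against 46.8% of 35116 windows in the table. Of tested genes with a window, 83.2% had a CpG-rich one, so this feature is common among expressed genes. The share of genes past the DNMT1 KO test was 15.1% where a window was CpG-rich and 28.9% where none was. Given here 5′ to 3′ with each CG in capitals are windows of KDM2A and ZMYND11, which did not pass the test, and of GLYR1, a related reader that did and is described next. They lie at chr11:67119013-67119312 on the plus strand with 44 CG, chr10:135015-135314 on the plus strand with 48 CG and chr16:4847239-4847538 on the minus strand with 46 CG, where the median window held 14.
KDM2A: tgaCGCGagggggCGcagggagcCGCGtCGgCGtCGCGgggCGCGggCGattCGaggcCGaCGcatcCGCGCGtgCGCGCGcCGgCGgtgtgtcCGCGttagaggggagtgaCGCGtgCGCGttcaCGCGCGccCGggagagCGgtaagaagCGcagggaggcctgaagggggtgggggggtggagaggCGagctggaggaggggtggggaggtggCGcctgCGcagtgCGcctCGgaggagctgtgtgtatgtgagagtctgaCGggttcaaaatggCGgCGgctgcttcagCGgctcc
ZMYND11: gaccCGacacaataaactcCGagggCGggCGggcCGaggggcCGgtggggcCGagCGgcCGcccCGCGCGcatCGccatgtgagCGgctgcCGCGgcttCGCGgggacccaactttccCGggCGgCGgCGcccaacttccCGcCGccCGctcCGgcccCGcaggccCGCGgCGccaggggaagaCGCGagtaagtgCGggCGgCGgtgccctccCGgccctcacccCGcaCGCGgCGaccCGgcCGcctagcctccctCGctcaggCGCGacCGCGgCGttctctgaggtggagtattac
GLYR1: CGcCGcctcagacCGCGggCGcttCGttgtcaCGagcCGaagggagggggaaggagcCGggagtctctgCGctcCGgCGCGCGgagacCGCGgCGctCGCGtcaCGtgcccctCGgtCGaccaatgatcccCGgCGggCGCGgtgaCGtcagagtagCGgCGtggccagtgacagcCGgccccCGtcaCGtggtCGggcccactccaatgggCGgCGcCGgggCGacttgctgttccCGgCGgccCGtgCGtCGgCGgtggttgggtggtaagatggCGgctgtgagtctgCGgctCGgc
The windows shown for KDM2A and ZMYND11 are the richest of their genes, whose poorest windows held 12 and 3 CG. BRPF3 and KDM4D, which also passed the test and are described below, had windows of 35 and 24 CG. Whether CG count bears on the change was not tested. The richest windows of the members held from 21 CG in KDM4A to 48 CG in ZMYND11.

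Other genes that read H3K36 methylation or are related to the demethylases were taken as a list of 23, of which 20 had enough counts to be tested. In this list 2 genes rose and 1 fell, against 8.45% and 7.61% of all genes tested, and the median log2 fold change was 0.12. GLYR1, also called NPAC, couples a PWWP domain to a dehydrogenase-like domain and promotes passage of RNA polymerase through nucleosomes. GLYR1 (ENSG00000140632, chr16:4803203-4847288, minus strand) was at 5.46, 9.81, 9.49 and 9.45 CPM in DNMT1 KO and from 52.7 through a median of 65.0 to 88.0 CPM in HCT116, with no overlap. It was 7.94-fold lower in DNMT1 KO (-2.99 on the log2 scale with SE 0.27, edgeR adjusted p = 2.01e-06), and its log2 ratio was -3.27 in batch 1 and -2.75 in batch 2.

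BRPF3 is a scaffold subunit of histone acetyltransferase complexes and carries a PWWP domain. Its level (ENSG00000096070, chr6:36196744-36232790, plus strand) was 176, 215, 187 and 137 CPM in DNMT1 KO, all above HCT116, where it ran from 36 through a median of 57.4 to 110.2 CPM. BRPF3 rose by 1.45 on the log2 scale (SE 0.30, adjusted p = 0.00309 with edgeR), with log2 ratios of 1.92 in batch 1 and 1.05 in batch 2. KDM4D, a relative of KDM4A to KDM4C that acts on H3K9 rather than H3K36, is the demethylase of the list that changed. KDM4D (ENSG00000186280, chr11:94973709-94999519, plus strand) was at 15.8, 16.1, 12.2 and 12 CPM in DNMT1 KO against 5.68, 6.85 and 8.55 CPM as lowest, median and highest in HCT116, with no overlap. KDM4D rose by 1.03 on the log2 scale (SE 0.23, adjusted p = 0.00562 with edgeR), and its log2 ratios were 1.25 and 1.13 in batches 1 and 2. These 3 genes were named because they passed the test, so their separation between the lines follows from that choice. It gives no contrast with the 10 members, which were not picked by that test.

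**Figure D5:**
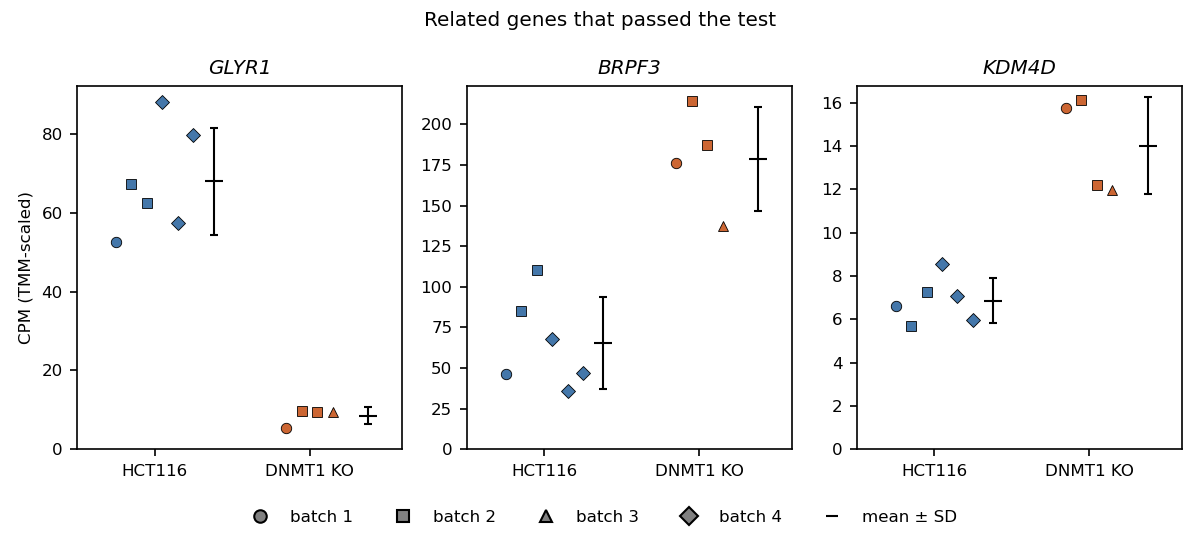
Level in every library of GLYR1, BRPF3 and KDM4D, the 3 genes of the related list that passed the test, in CPM on TMM-scaled totals, with HCT116 in blue, DNMT1 KO in orange and batch given by the marker shape. Ticks and bars are the mean ± SD, and no library of one group overlaps the other in any of the 3 panels.

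The remaining tested genes of that list did not pass the test. DNMT3A, whose PWWP domain binds dimethylated H3K36, was at 21.4 ± 5.38 CPM in HCT116 and 35.0 ± 6.01 CPM in DNMT1 KO (log2 fold change 0.71, edgeR adjusted p = 0.0641), and DNMT3B, which binds the trimethylated form, was at 37.8 ± 12 and 21.6 ± 6.35 CPM (-0.81, adjusted p = 0.0898). The values of DNMT3A, DNMT3B and PCGF1 are given for their ties to the members and were chosen after they were seen. PHF1, HDGFL3 and KDM4E had too few counts for the test, and neither a count of 0 nor a low one shows that a gene is silent in cells. Partners of KDM2B, PSIP1 and HDGFL2 gave no gene past the test: 0 of 8 tested PRC1.1 partners of KDM2B and 0 of 5 partners of PSIP1 and HDGFL2. PCGF1, the subunit that joins KDM2B to PRC1.1, came nearest, at 31.6 ± 7.60 CPM in HCT116 and 19.5 ± 3.55 CPM in DNMT1 KO (log2 fold change -0.70, SE 0.24, edgeR adjusted p = 0.0627), with all DNMT1 KO libraries below all HCT116 libraries. Beside these, 0 of 12 proliferation genes passed, with a median log2 fold change of -0.12 and a summed level of 890.2 to 5680 CPM in HCT116 and 1882 to 3888 CPM in DNMT1 KO.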

How the data were processed

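RNA was measured in 10 libraries, 6 of HCT116 and 4 of DNMT1 KO, grouped by their labels. The authors sequenced poly(A)-selected, stranded libraries as read pairs, trimmed reads with Trim Galore 0.4.1, checked them with FastQC 0.11.4, aligned them with bowtie2, whose alignments are not spliced, to hg38, and counted exonic reads by gene with featureCounts. A strand setting is not given in the sources used here. The deposited values are counts as featureCounts gave them, without normalisation. Antisense and overlapping genes may therefore share or lose reads. Tables of a further 3 HCT116 libraries have no sample in the list and were not used here. Some genes of the lists are not reported here.

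The test was edgeR 4.0.16 under R 4.3.3 (quasi-likelihood, TMM, filterByExpr defaults, group as the sole term, two-sided) and adjusted by Benjamini-Hochberg over 19279 genes. Genes passed at an adjusted p under 0.05. The exact permutation test was two-sided on mean log2 CPM. HCT116 batches were compared in the same way. Levels are CPM on TMM-scaled totals. Gene spans and exon lengths are those of the count tables on hg38. For RIOX1, ZMYND11, MSH6 and DNMT1 they differ at an end from GENCODE 44, which gave the coding lengths. DESeq2 1.42.0, other scalings, filters, batch terms, a replicate block, halved counts and each library left out were alternatives, and the edgeR and permutation tests were tried on simulated data. Of each list, genes past the test were named, at most 4. The members and lists were chosen with earlier results of these data known. Intervals cover the spread between libraries. Since small counts were mostly even in 9 libraries, these may rest on fewer fragments than counts.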

Additional observations from a re-analysis of the deposited data

Results flagged for a closer look

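Of 28 groups of per-library values searched for a library lying apart within its group (10 members, DNMT1, GLYR1, BRPF3 and KDM4D in each line), 3 held one, where chance gives about 1.4. HDGFL2 was at 32.0 CPM in DNMT1 KO replicate 3, below the other DNMT1 KO libraries. MSH6 was at 265 CPM in HCT116 replicate 7, above the other HCT116 libraries. GLYR1 was at 5.46 CPM in DNMT1 KO replicate 1, below the other DNMT1 KO libraries and below all HCT116 libraries. The log2 fold change of MSH6 without HCT116 replicate 7 was 0.0953, against -0.11 with it, and edgeR's test was not passed in either fit.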

How the results depend on the processing

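Across 22 alternative fits, no member had an adjusted p under 0.05 in any (smallest 0.118, for KDM2B), and KDM2A and KDM2B kept a positive log2 fold change in each. Each of the others changed sign in at least 1 fit. With batch as a term over all libraries, log2 fold changes were -0.15 for KDM4A, -0.099 for KDM4B, -0.084 for KDM4C, -0.032 for HDGFL2, -0.085 for ZMYND11 and 0.26 for MSH6. In batches 1 and 2 with that term they were, in the same order, -0.15, -0.098, -0.083, -0.031, -0.083 and 0.26, and without it -0.20, -0.097, -0.072, -0.085, -0.083 and 0.25. With the replicate block they were -0.15, -0.098, -0.080, -0.070, -0.071 and 0.19. Batch 2 alone gave -0.29 for KDM4A, -0.11 for KDM4B, -0.035 for KDM4C, -0.093 for ZMYND11 and 0.39 for MSH6. HCT116 of batches 1 and 2 against all DNMT1 KO libraries, an alternative chosen after seeing the data, gave -0.26 for KDM4A, -0.19 for KDM4B, -0.16 for KDM4C, -0.032 for HDGFL2, -0.10 for ZMYND11 and 0.28 for MSH6. Library totals alone turned MSH6 to 0.11 in the fit and 0.12 in the difference of mean log2 CPM, and no filter turned HDGFL2 to -0.0073. The cause was not tested.

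With 1 library left out at a time, log2 fold changes ran from -0.062 to 0.21 for KDM4C, -0.058 to 0.32 for RIOX1, -0.054 to 0.28 for PSIP1, -0.079 to 0.22 for HDGFL2 and -0.29 to 0.095 for MSH6. Library totals moved the median of all genes from -0.07 to 0.14 and the share of called genes that were higher from 53.4% to 66.3%. Genes called, 1431 higher and 1251 lower, were 734 and 766 with 10 counts required in every library, where fewer genes were tested, and 815 and 798 in batch 2 alone, where fewer libraries were. KDM4D (1.13, adjusted p = 0.135) and BRPF3 (1.05, adjusted p = 0.102) did not pass edgeR's test in batch 2 alone, and GLYR1 passed in each fit. KDM4D lay near the fold threshold of 1, with log2 fold changes from 0.956 to 1.24 over the alternative fits. Correlations of same-numbered libraries were mixed (0.55, -0.27 and 0.37), which does not settle whether replicate numbers pair the libraries. The replicate block gave 1232 genes higher and 1235 lower.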
